A study of Mus musculus with 6 samples.

Results

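The genes described here make, conjugate and carry bile acids in the mouse liver or set the feedback on their synthesis. They are the 10 rows of the deposited count table, out of 35977, with the symbols Cyp7a1, Cyp8b1, Cyp27a1, Cyp7b1, Slc27a5, Baat, Slc10a1, Abcb11, Nr1h4 and Nr0b2, and all 10 passed the filter on low counts. The livers came from mice injected with an adeno-associated virus of serotype 9 (AAV9) in which the promoter of Tnnt2, the cardiac troponin T gene, drives Cre recombinase. In the Cre-miR122 group (replicates 1, 2 and 4) the vector also held target sites for miR-122, a microRNA that is abundant in hepatocytes, and in the Cre group (replicates 10, 11 and 12) it did not. All mice thus received a Cre vector, there was no uninjected group among the 6 libraries, and the labels give no strain, age, sex, dose, time after injection or feeding state, nor whether each library is 1 animal.

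Hepatocytes turn cholesterol into bile acids by a classic pathway that Cyp7a1 opens and an alternative pathway that Cyp27a1 and Cyp7b1 serve, while Cyp8b1 sets how much cholic acid is made. Slc27a5 and Baat then join the acids to coenzyme A and to an amino acid, Abcb11 pumps the conjugates into bile, and Slc10a1 takes them up again from portal blood. Bile acids activate the nuclear receptor FXR, encoded by Nr1h4, which in liver induces Nr0b2 (the repressor SHP) and Abcb11 and lowers Cyp7a1 and Cyp8b1. A further arm runs through FGF15, a hormone from the ileum in mice, and its hepatic receptor Fgfr4 with Klb.

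Total counts lay between 20340994 and 20817837 per library. No pair of libraries agreed within counting noise, the smallest chi-square per degree of freedom over genes being 6.22 among 15 pairs. The Cre row, which checks the labels, held 12, 16 and 10 counts in Cre-miR122 replicates 1, 2 and 4, against 61, 50 and 37 counts in Cre replicates 10, 11 and 12 (log2 fold change -1.95, SE 0.28, edgeR adjusted p = 0.816 over all genes). Its unadjusted edgeR p of 6.28e-05 was the smallest of all genes tested. The fit thus did not call this difference, so the lack of a call for another gene does not show equal levels. Cre replicate 10 had 5 counts of Xist and 1676 of the Y-linked gene Ddx3y, against at least 15778 and at most 1 in the other libraries, so it differs from them in sex. Of 9 hepatocyte markers tested, 5 were higher with Cre-miR122 on average and 4 lower, with sums of 142000 to 143000 CPM (the usual unit for counts corrected for library size, with totals scaled by edgeR's TMM method) with Cre-miR122 and 122000 to 147000 CPM with Cre, and none was called. Alb stood at 112300 ± 2629 CPM with Cre-miR122 and 106700 ± 12100 CPM with Cre (SD, n = 3 each). Of 10 ileal markers, Fgf15 and Sis had 0 counts in every library, which allows up to 0.150 CPM in each at 3 counts. Fabp2 lay between 76.8 and 92.1 CPM and Apoa4, which liver also expresses, between 55.4 and 272 CPM, and the remaining ileal markers stayed under 1 CPM. Which cells the Fabp2 reads came from was not tested. Among those under 1 CPM, Alpi had 11 counts in Cre-miR122 replicate 1 and 0 in every other library. The bile duct marker Krt19 lay between 1.35 and 2.59 CPM in all 6. Of 10 leukocyte markers tested, 3 were higher with Cre-miR122 on average and 7 lower, against 7096 and 7278 of all genes tested. Their sums were 241 to 295 CPM with Cre-miR122 and 279 to 325 CPM with Cre, and none was called. The groups did not overlap for Cd3e, higher with Cre-miR122, and for Cd79a, Cd79b, Ms4a1 and S100a8, lower with it. Such groups were found for 11.1% of all genes tested.

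RefSeq promoter windows (build GRCm38.p6, 250 bases before to 50 after the gene start) matched Cyp8b1, Cyp27a1, Slc10a1, Abcb11, Nr1h4 and Nr0b2, 6 of the 10 genes, and not Cyp7a1, Cyp7b1, Slc27a5 and Baat. Shown here are those of Abcb11 and Nr0b2, the genes FXR induces, and of Cyp8b1, a gene it lowers, each 5′ to 3′ along its gene. Capitals in Abcb11 (chr2:69342567-69342866, minus strand) mark a match with 1 mismatch to AGGTCANTGACCT, the inverted repeat with a 1-base gap that FXR is known to bind. Capitals in Nr0b2 (chr4:133553126-133553425, plus strand) mark CAAGG, the core bound by the receptor LRH-1 (Nr5a2), and a TATAAA box. Capitals in Cyp8b1 (chr9:121916256-121916555, minus strand) mark CAAAGTCCA, a sequence that HNF4 alpha (Hnf4a) is known to bind, the CAAGG that overlaps its end, and a TATAAA box.
Abcb11: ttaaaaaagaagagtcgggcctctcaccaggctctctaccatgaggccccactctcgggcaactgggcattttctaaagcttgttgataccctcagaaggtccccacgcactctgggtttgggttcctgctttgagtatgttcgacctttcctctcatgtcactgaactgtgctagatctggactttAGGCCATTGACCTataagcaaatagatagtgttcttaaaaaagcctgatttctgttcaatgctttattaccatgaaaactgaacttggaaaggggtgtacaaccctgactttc
Nr0b2: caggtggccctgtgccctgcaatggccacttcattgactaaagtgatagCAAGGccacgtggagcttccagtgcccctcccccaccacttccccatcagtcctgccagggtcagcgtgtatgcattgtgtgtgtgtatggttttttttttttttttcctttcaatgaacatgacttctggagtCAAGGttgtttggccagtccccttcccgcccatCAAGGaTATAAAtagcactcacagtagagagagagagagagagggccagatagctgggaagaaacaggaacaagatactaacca
Cyp8b1: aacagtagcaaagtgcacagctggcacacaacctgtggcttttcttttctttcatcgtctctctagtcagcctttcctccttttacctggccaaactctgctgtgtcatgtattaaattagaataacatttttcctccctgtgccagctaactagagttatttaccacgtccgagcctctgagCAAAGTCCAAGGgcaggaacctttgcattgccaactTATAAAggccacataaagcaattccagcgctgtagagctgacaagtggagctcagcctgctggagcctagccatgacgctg

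The inverted repeat, searched on both strands with at most 1 mismatch, began 63 bases before the RefSeq start of Abcb11 (position -63) and was in none of the other matched windows. It was found in 0.0822% of all 32851 windows. CAAGG lay at -201, -67 and -34 in Nr0b2, at -60 in Cyp8b1 and, on the opposite strand, at 36 in Cyp27a1 and -162 in Slc10a1, and 52.1% of all windows held it on one strand or the other. CAAAGTCCA began at -67 in Cyp8b1, with 0.475% of all windows holding it. TATAAA began at -28 in Nr0b2 and -31 in Cyp8b1, lay on the opposite strand at -128 in Slc10a1, and was present in 13.6% of windows. These are matches of letters, not measured binding, and the exons counted for Abcb11 reach to base 69342843, past the RefSeq start.

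None of the 10 genes was called different between the vectors. At an edgeR adjusted p under 0.05 there were 0 calls among the 10 and 0 among all 14374 genes tested (0%), and the smallest adjusted p among the 10 was 0.816. At an unadjusted p under 0.05 there was 1 of the 10, Cyp7b1, where 5.41% of all genes passed. That background itself depended on single libraries, with 397 genes higher and 381 lower at this p in all 6 libraries, 799 and 736 when Cre replicate 12 was left out, and 226 and 199 when Cre-miR122 replicate 4 was left out. Cyp7b1 was also the 1 gene of the 10 whose groups did not overlap, which held for 11.1% of all genes tested. Fold changes pointed up for 6 of the 10 genes and down for 4, against 7096 up and 7278 down over all genes tested. The median on the log2 scale was 0.028, against -0.0029 over all genes tested. Leaving out Cre-miR122 replicate 1 turned the median of the 10 to -0.040 and leaving out Cre replicate 12 turned it to -0.028, while it was 0.0059 when Cre replicate 10 was left out and 0.068 when Cre replicate 11 was. DESeq2 called 3 genes in the whole table, Prok1, Psrc1 and Cre, and limma-voom called 0. In bulk liver, fewer cells of a type and less RNA per cell cannot be told apart. The 3 libraries of a group may share animals, litters or handling that the labels do not give, so the p-values measure only the spread between these libraries.

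**Figure D1:**
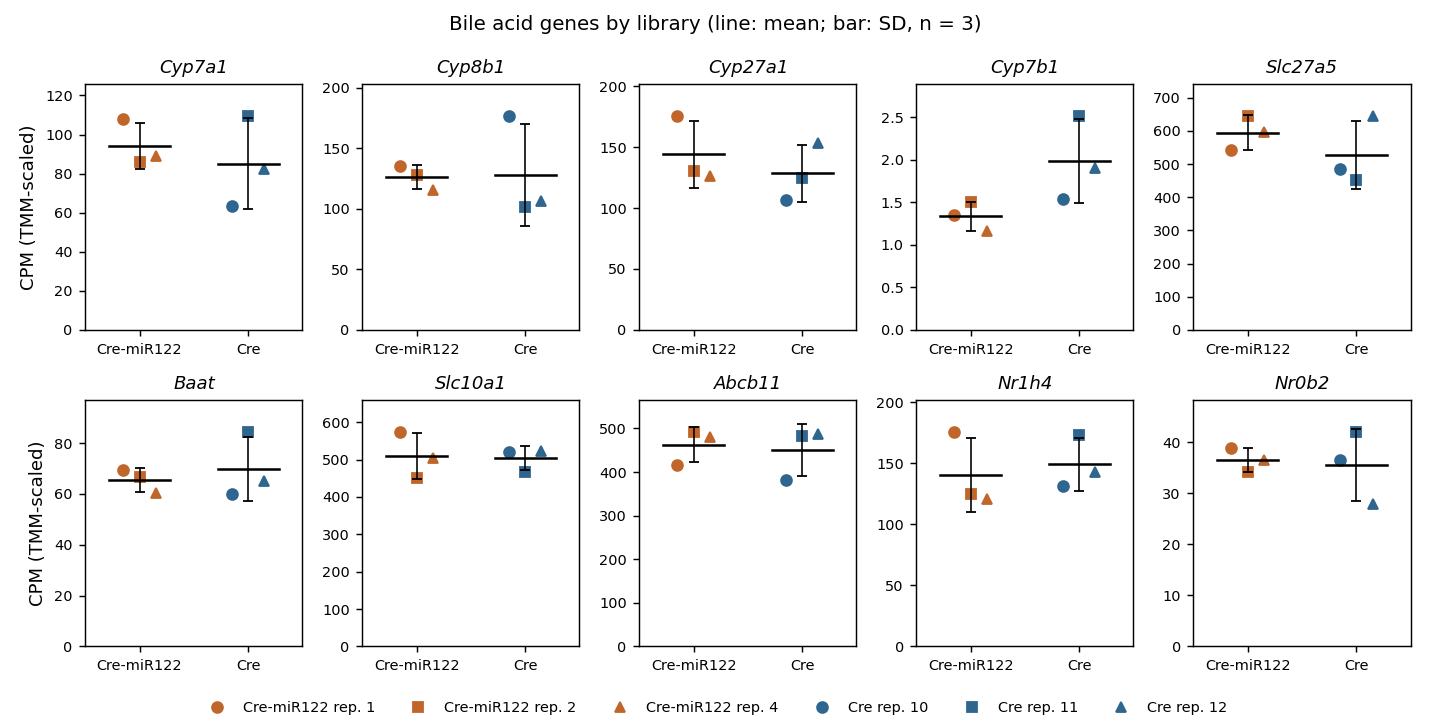
Level of each of the 10 genes in CPM (vertical axes, from 0) in 3 Cre-miR122 and 3 Cre libraries, with the group mean as a line and the SD as a bar. The groups overlap for every gene except Cyp7b1, and Cre replicate 10 is the lowest library for Cyp7a1 and the highest for Cyp8b1.

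Per length of exon, the carriers and the coenzyme A ligase were the most abundant of the 10 and Cyp7b1 the least. Averaged over the 6 libraries, Slc27a5 stood at 241 ± 35.3 FPKM (CPM divided by the exon length in kilobases) and Slc10a1 at 231 ± 19.9 FPKM (SD, n = 6), and these levels overlapped between libraries. Slc10a1 was in every library above Abcb11, which had 75.0 ± 7.66 FPKM. Abcb11, Cyp8b1 (65.2 ± 14.1 FPKM), Nr1h4 (60.1 ± 10.02 FPKM) and Cyp27a1 (58.6 ± 10.5 FPKM) each overlapped with the next in this order. After a gap came Nr0b2 at 28.1 ± 3.71 FPKM, Baat at 20.5 ± 2.69 FPKM and Cyp7a1 at 18.0 ± 3.47 FPKM, again overlapping neighbours. Cyp7b1 lay below all of them at 0.681 ± 0.199 FPKM, its highest library at 1.03 and the lowest Cyp7a1 library at 12.7. The lengths are those of all exons merged, from 1282 bases for Nr0b2 to 6087 for Abcb11, so a gene with long alternative exons is placed too low. Together the 10 genes took 0.220%, 0.216% and 0.212% of the counts in Cre-miR122 replicates 1, 2 and 4 and 0.195%, 0.215% and 0.218% in Cre replicates 10, 11 and 12.

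Cyp7a1, which encodes cholesterol 7 alpha-hydroxylase, the rate-limiting enzyme of the classic pathway, did not differ beyond the spread between libraries. Its exons lie on chromosome 4 between 6264113 and 6275631 (GRCm38, as for all coordinates here). It stood at 108, 85.7 and 88.8 CPM in Cre-miR122 replicates 1, 2 and 4, against 63.3, 110 and 82.5 CPM in Cre replicates 10, 11 and 12. The highest and the lowest library were both Cre libraries, and the Cre-miR122 libraries lay between them. The means were 94.1 ± 11.9 CPM with Cre-miR122 and 85.1 ± 23.3 CPM with Cre (SD, n = 3 each), a log2 fold change of 0.14 (SE 0.18, edgeR adjusted p = 0.876). The 95% interval ran from 0.837-fold to 1.46-fold. Leaving out Cre replicate 10, which differs in sex, gave a log2 fold change of -0.030, leaving out Cre-miR122 replicate 1 gave 0.036, and leaving out Cre replicate 11 gave 0.37.

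Cyp8b1 encodes sterol 12 alpha-hydroxylase, which directs synthesis to cholic acid (chromosome 9, 121914356 to 121916305). Its level was 135, 128 and 116 CPM in Cre-miR122 replicates 1, 2 and 4 and 177, 101 and 106 CPM in Cre replicates 10, 11 and 12. Cre replicate 10, lowest for Cyp7a1, was here the highest library, and the Cre libraries again spanned the Cre-miR122 ones. On the log2 scale Cyp8b1 differed by -0.023 (SE 0.19, edgeR adjusted p = 0.982), with an interval from 0.731-fold to 1.33-fold. With Cre replicate 10 left out it turned to 0.28, with Cre-miR122 replicate 4 left out to 0.036, while limma-voom gave 0.022.

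Cyp27a1 encodes sterol 27-hydroxylase, a mitochondrial enzyme that opens the alternative pathway and also shortens the side chain in the classic one (chromosome 1, 74713146 to 74737897). It stood at 176, 130 and 126 CPM in Cre-miR122 replicates 1, 2 and 4, against 107, 125 and 154 CPM in Cre replicates 10, 11 and 12. Cre-miR122 replicate 1 was highest and Cre replicate 10 lowest, with the remaining libraries intermixed. Cyp27a1 thus differed by 0.17 on the log2 scale (SE 0.16, edgeR adjusted p = 0.839), with an interval from 0.878-fold to 1.44-fold. Leaving out Cre-miR122 replicate 1 brought it to 0.0005, leaving out Cre replicate 10 to 0.051, and leaving out any other single library to between 0.15 and 0.32.

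Cyp7b1 encodes oxysterol 7 alpha-hydroxylase, the next enzyme of the alternative pathway, which in adult mouse liver is known to be higher in males (chromosome 3, 18071944 to 18243890). Its counts were few, 27, 31 and 24 in Cre-miR122 replicates 1, 2 and 4 and 31, 54 and 38 in Cre replicates 10, 11 and 12. In CPM these were 1.35, 1.499 and 1.16 with Cre-miR122 and 1.54, 2.52 and 1.90 with Cre. All Cre-miR122 libraries lay below all Cre libraries, but the nearest pair, Cre-miR122 replicate 2 and Cre replicate 10, had 31 counts each. Exact 95% Poisson intervals, which cover counting error only, were 1.02 to 2.13 CPM for Cre-miR122 replicate 2 and 1.04 to 2.18 CPM for Cre replicate 10. The means were 1.34 ± 0.169 CPM with Cre-miR122 and 1.98 ± 0.496 CPM with Cre (SD, n = 3 each). The log2 fold change was -0.57 (SE 0.25), with an unadjusted edgeR p of 0.0434 and an adjusted p of 0.816. Permuting the labels exactly gave p = 0.1 (two-sided), and no smaller p is possible with 3 libraries in each group. It was -0.36 without Cre replicate 11 and -0.73 without Cre replicate 10, and it stayed below 0 whichever single library was left out. Cre replicate 10, with Y-linked transcripts, was the lowest Cre library for this gene.

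The conjugating enzymes showed no called difference either. Slc27a5 encodes the bile acyl-CoA synthetase (chromosome 7, 12988346 to 12998192) and stood at 543, 646 and 597 CPM in Cre-miR122 replicates 1, 2 and 4 and at 486, 451 and 645 CPM in Cre replicates 10, 11 and 12. Cre replicates 10 and 11 were lowest, while Cre replicate 12 matched the highest Cre-miR122 library. Its log2 fold change was 0.17 (SE 0.14, edgeR adjusted p = 0.821), with an interval from 0.909-fold to 1.401-fold, and it ranged from 0.073, when Cre replicate 11 was left out, to 0.35, when Cre replicate 12 was, with 0.11 when Cre-miR122 replicate 2 was. Baat encodes the enzyme that joins bile acids to taurine or glycine, taurine being the main partner in mice (chromosome 4, 49489416 to 49507916). Its level was 69.4, 66.6 and 60.4 CPM in Cre-miR122 replicates 1, 2 and 4, against 60.1, 84.2 and 65.1 CPM in Cre replicates 10, 11 and 12. Cre replicate 11 was highest and the other libraries lay between 60.1 and 69.4 CPM. Baat differed by -0.093 on the log2 scale (SE 0.13, edgeR adjusted p = 0.887, interval 0.770-fold to 1.14-fold) and turned to 0.063 without Cre replicate 11.

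The carriers were the steadiest of the 10 genes. Slc10a1 encodes NTCP, the sodium-dependent carrier that takes conjugated bile acids up from blood (chromosome 12, 80953185 to 80968700). It stood at 573, 452 and 505 CPM in Cre-miR122 replicates 1, 2 and 4 and at 521, 467 and 524 CPM in Cre replicates 10, 11 and 12, so the Cre-miR122 libraries spanned the Cre ones. The log2 fold change was 0.017 (SE 0.11, edgeR adjusted p = 0.977), and its interval of 0.857-fold to 1.19-fold was the narrowest of the 10. Abcb11 encodes BSEP, the export pump of the canalicular membrane and a direct FXR target whose inverted repeat is printed above (chromosome 2, 69238282 to 69342843). It stood at 416, 491 and 481 CPM in Cre-miR122 replicates 1, 2 and 4 and at 381, 483 and 488 CPM in Cre replicates 10, 11 and 12. The lowest library of each group, Cre-miR122 replicate 1 and Cre replicate 10, set the spread, and the other 4 lay between 481 and 491 CPM. Abcb11 had a log2 fold change of 0.038 (SE 0.12, edgeR adjusted p = 0.955, interval 0.855-fold to 1.23-fold). Slc10a1 turned to -0.075 without Cre-miR122 replicate 1 and -0.036 without Cre replicate 11, and Abcb11 to -0.0076 without Cre-miR122 replicate 2 and -0.070 without Cre replicate 10.

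The feedback genes likewise overlapped between the vectors. Nr1h4, the gene of FXR (chromosome 10, 89454234 to 89533646), stood at 175, 125 and 121 CPM in Cre-miR122 replicates 1, 2 and 4, against 132, 174 and 143 CPM in Cre replicates 10, 11 and 12. Cre-miR122 replicate 1 and Cre replicate 11 were nearly level at the top. The log2 fold change was -0.089 (SE 0.16, edgeR adjusted p = 0.916, interval 0.738-fold to 1.20-fold). With Cre replicate 11 left out it turned to 0.032, with Cre-miR122 replicate 4 left out to 0.0089, and it was -0.28 without Cre-miR122 replicate 1. Nr0b2, the gene of SHP (chromosome 4, 133553376 to 133556686), stood at 38.95, 34.1 and 36.5 CPM in Cre-miR122 replicates 1, 2 and 4 and at 36.5, 41.95 and 27.96 CPM in Cre replicates 10, 11 and 12. Cre replicates 11 and 12 were the highest and the lowest library, with all Cre-miR122 libraries between them. Its log2 fold change was 0.041 (SE 0.14, edgeR adjusted p = 0.958, interval 0.831-fold to 1.28-fold) and turned to -0.0070 without Cre-miR122 replicate 1 and -0.10 without Cre replicate 12.

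**Figure D2:**
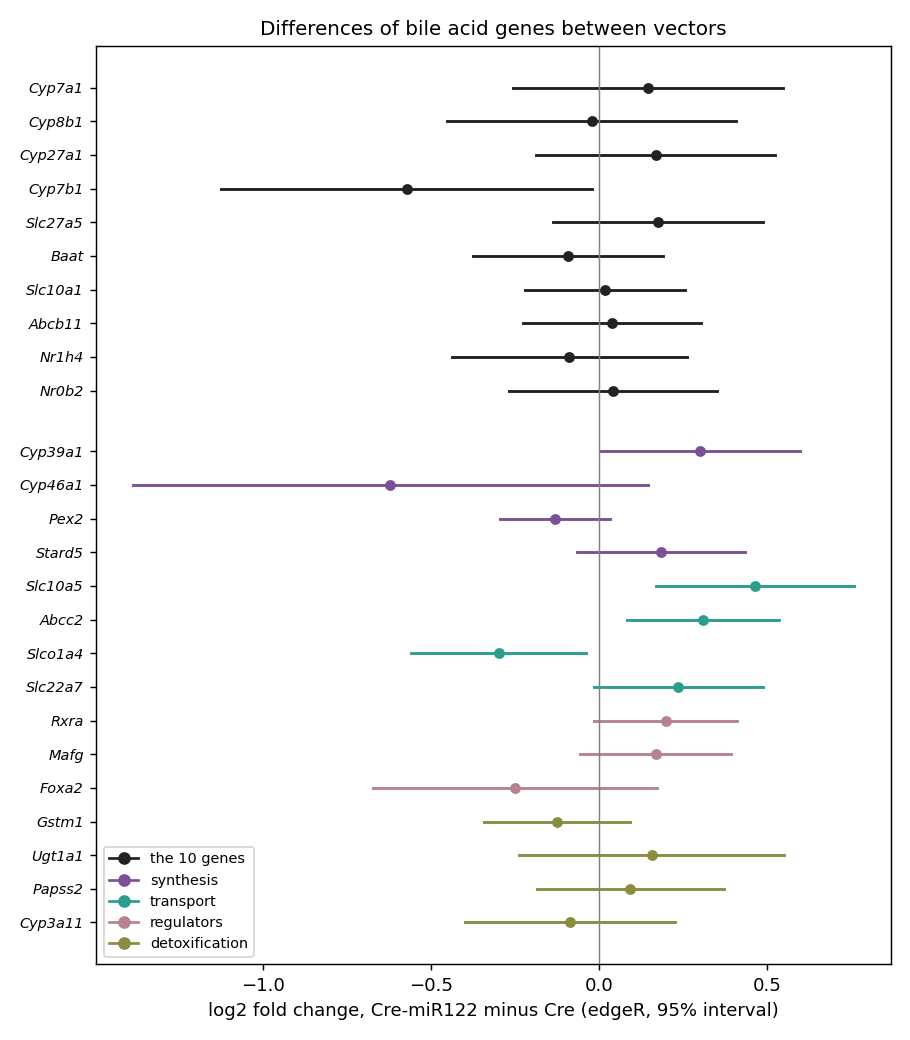
Log2 fold change of Cre-miR122 minus Cre (horizontal axis) with its 95% interval from edgeR, for the 10 genes in black above and further genes of bile acid lists in colour below. The interval excludes 0 for Cyp7b1 among the 10, and for Cyp39a1, Slc10a5, Abcc2 and Slco1a4 among the others, in each case before adjustment over all genes.

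Across the 6 libraries, the highest exceeded the lowest by a median of 1.48-fold over the 10 genes, from 1.27-fold for Slc10a1 to 2.17-fold for Cyp7b1, against a median of 1.33-fold over 13036 genes with a mean of at least 1 CPM. Cre replicate 10 lay 0.48 below the mean of the 6 libraries for Cyp7a1 on the log2 scale, 0.33 below it for Cyp27a1 and 0.26 below it for Abcb11, but 0.50 above it for Cyp8b1. Cre replicate 11 lay 0.61 above the mean for Cyp7b1, 0.31 above it for Cyp7a1 and 0.33 above it for Baat, and 0.30 below it for Cyp8b1 and for Slc27a5. Cre-miR122 replicate 1 lay 0.39 above the mean for Cyp27a1 and 0.29 above it for both Cyp7a1 and Nr1h4. The library lowest for Nr0b2, Cre replicate 12 at 0.35 below the mean, was 0.096 below the mean for Cyp7a1, and the library highest for Nr0b2, Cre replicate 11, was also the highest for Cyp7a1. Cre replicate 10 is the 1 library of its sex, so sex and library cannot be told apart. Without it, the log2 fold change of Nr1h4 was -0.17, that of Baat -0.19, that of Slc27a5 0.12, that of Nr0b2 0.062 and that of Slc10a1 0.041. Leaving out 1 library turned the sign of the log2 fold change for 7 of the 10 genes, all except Cyp27a1, Cyp7b1 and Slc27a5, and no gene of the 10 was called in any such fit.

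**Figure D3:**
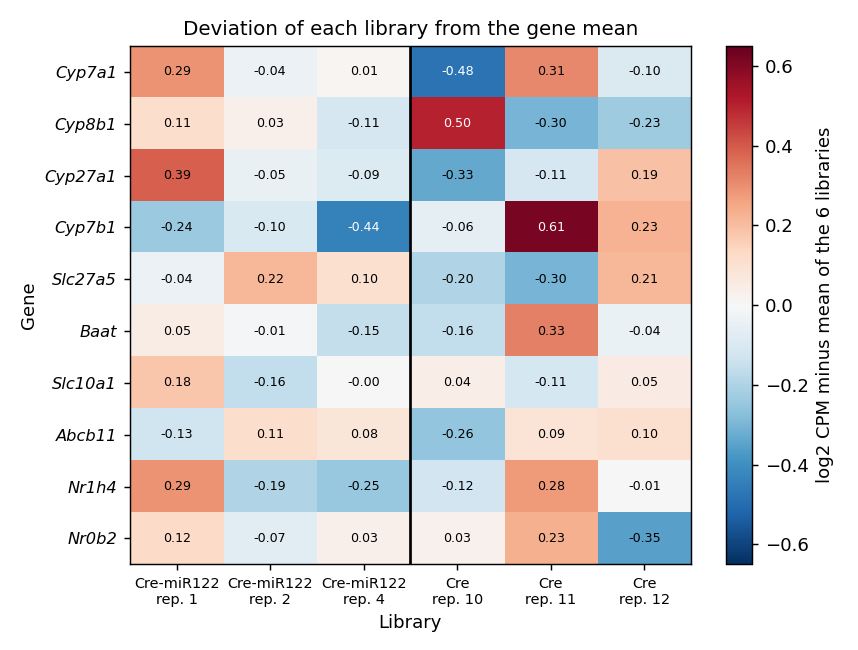
Deviation of log2 CPM in each library (columns, Cre-miR122 left of the line and Cre right of it) from the mean of the 6 libraries, for each of the 10 genes (rows). Cre replicate 10 is lowest for Cyp7a1 at -0.48 and highest for Cyp8b1 at 0.50, while the Cre-miR122 columns hold no deviation beyond 0.44 in size.

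**Figure D4:**
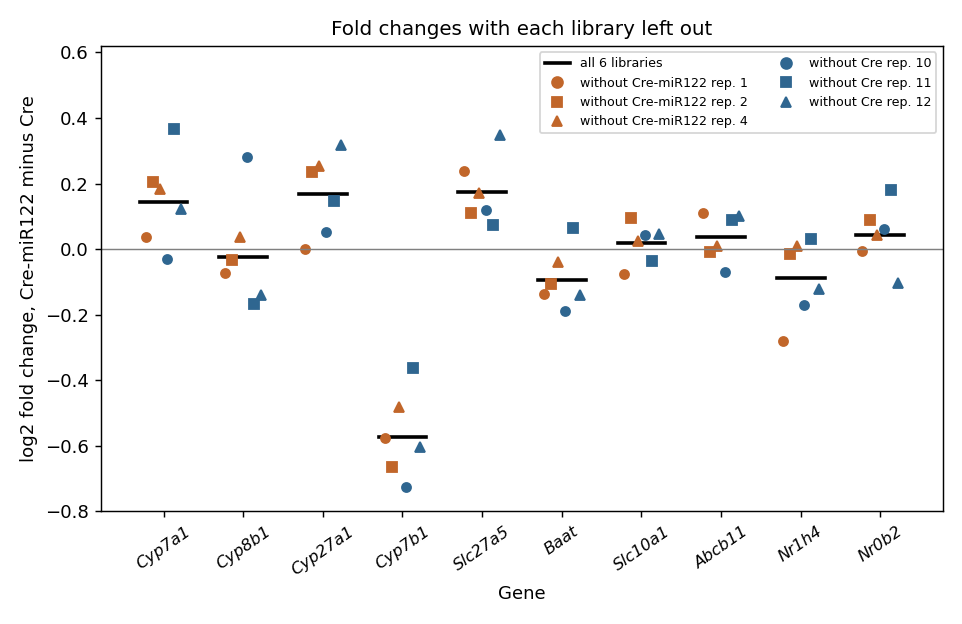
Log2 fold change of Cre-miR122 minus Cre (vertical axis) for each gene with all 6 libraries (black bar) and with 1 library left out (points, coloured by the group of that library). Cyp7b1 stays below 0 in all fits, between -0.73 and -0.36, and 7 genes have points on both sides of 0.

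Ratios of counts within a library, which do not depend on how libraries are scaled, compared branches of the pathway. The counts were not divided by exon length, which was 4969 bases for Cyp7a1, 1950 for Cyp8b1, 2437 for Cyp7b1 and 1282 for Nr0b2. The ratios thus compare libraries and do not give the relative levels of the genes in a pair. There were 3 ratios, and their exact permutation p-values were adjusted over the 3. Counts of Cyp7a1 exceeded those of Cyp7b1 by 78.6-fold, 56.3-fold and 74.9-fold in Cre-miR122 replicates 1, 2 and 4. In Cre replicates 10, 11 and 12 they did so by 40.6-fold, 43.1-fold and 42.8-fold. The groups did not overlap, and the Cre libraries lay closer together than the Cre-miR122 libraries. On the log2 scale the difference was 0.72 (6.11 ± 0.26 with Cre-miR122 and 5.40 ± 0.049 with Cre, SD, n = 3 each), with an exact two-sided permutation p of 0.1, the smallest possible here, and 0.3 after adjustment. It lay between 0.62 and 0.86 with any single library left out. This ratio rests on the 24 to 54 counts of Cyp7b1 per library. It is not a separate result, since it joins the log2 fold changes given above, -0.57 for Cyp7b1 and 0.14 for Cyp7a1. How many ratios of other gene pairs do not overlap between the groups was not counted.

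Counts of Cyp8b1 exceeded those of Cyp7a1 by 1.25-fold, 1.49-fold and 1.30-fold in Cre-miR122 replicates 1, 2 and 4. The ratio was 2.80, 0.924 and 1.29 in Cre replicates 10, 11 and 12. Cre replicate 10 stood far above the other libraries and Cre replicate 11 was the 1 library with fewer counts of Cyp8b1 than of Cyp7a1. Per length of exon Cyp8b1 was the higher in Cre replicate 11 too, at 51.92 FPKM against 22.05 FPKM for Cyp7a1. The log2 difference of -0.15 (exact permutation p = 0.9) turned to 0.30 without Cre replicate 10. The ratio of Cyp7a1 to its repressor's gene Nr0b2 was 2.77, 2.51 and 2.43 in Cre-miR122 replicates 1, 2 and 4 and 1.73, 2.61 and 2.95 in Cre replicates 10, 11 and 12. Cre replicate 10 was lowest and the other 5 libraries lay between 2.43 and 2.95. The log2 difference of 0.11 (exact permutation p = 0.9) turned to -0.11 without Cre replicate 10.

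**Figure D5:**
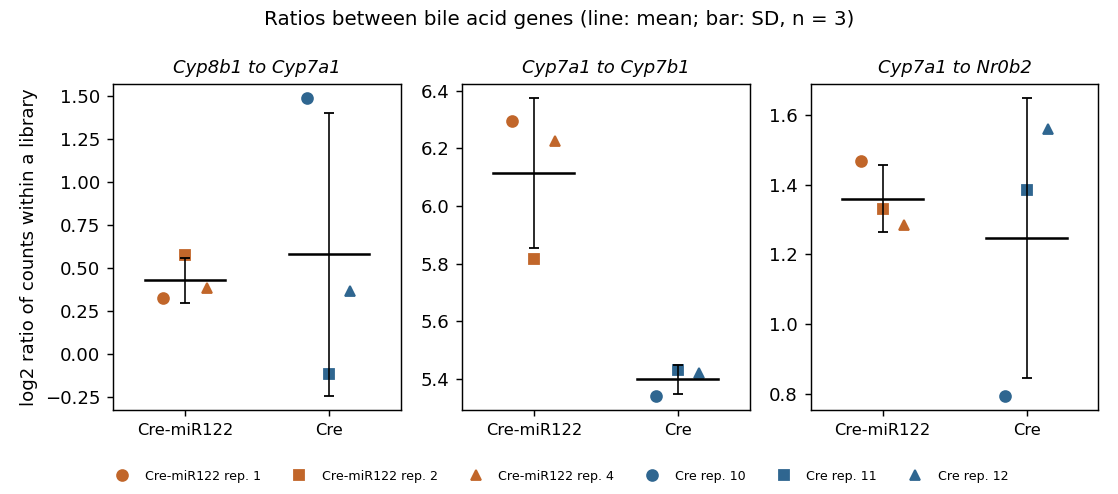
Log2 ratio of counts within each library (vertical axes, which do not start at 0) for 3 pairs of genes, with the mean as a line and the SD as a bar. The Cre-miR122 libraries lie above the Cre libraries for Cyp7a1 to Cyp7b1, and Cre replicate 10 stands apart for Cyp8b1 to Cyp7a1 at 1.48 and for Cyp7a1 to Nr0b2 at 0.80.

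Further genes of the pathway were taken from lists of synthesis enzymes, transporters, regulators and detoxifying enzymes, and none of the 65 tested was called. At an unadjusted edgeR p under 0.05 there were 4 of the 65, against 5.41% of all genes tested. Over all 14374 genes tested, 7096 were higher with Cre-miR122 and 7278 lower, the share to set beside each list here. Of 18 synthesis genes tested, 12 were higher with Cre-miR122 on average and 6 lower, the median difference being 0.053 on the log2 scale. Leaving out Cre replicate 10 brought that median to -0.00094, leaving out Cre replicate 11 or any 1 Cre-miR122 library to between 0.022 and 0.040, and leaving out Cre replicate 12 to 0.10. Cyp39a1, a 7 alpha-hydroxylase of oxysterols, stood at 209, 159 and 166 CPM in Cre-miR122 replicates 1, 2 and 4, against 127, 139 and 167 CPM in Cre replicates 10, 11 and 12. Only Cre replicate 12 overlapped with the Cre-miR122 libraries (log2 fold change 0.30, SE 0.13, edgeR adjusted p = 0.816), and the value was 0.17 without Cre-miR122 replicate 1. The log2 fold change was -0.62 (SE 0.34) for Cyp46a1, the cholesterol 24-hydroxylase best known from brain, at under 1 CPM in every library. It was -0.13 (SE 0.072) for the peroxisome assembly gene Pex2 and 0.18 (SE 0.11) for the sterol-binding protein gene Stard5. Cyp46a1 reached -0.98 without Cre-miR122 replicate 2, and Stard5 was 0.071 with Cre replicate 11 left out and 0.29 with Cre replicate 12 left out. The oxysterol enzyme gene Ch25h had at most 1 count per library.

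Transporters held 3 of those 4 genes, and 11 of 16 tested had the higher mean with Cre-miR122 (median log2 difference 0.15, but 0.054 when Cre replicate 11 was left out, 0.090 when Cre replicate 10 was and 0.25 when Cre replicate 12 was). Among all 14374 genes tested, 7096 were higher with Cre-miR122. Slc10a5, Abcc2, Slco1a4 and Slc22a7 are named because their p-values were the smallest of the list. Groups that do not overlap were found for 11.1% of all genes tested. Slc10a5, a member of the carrier family of Slc10a1, stood at 34.7, 43.0 and 43.8 CPM in Cre-miR122 replicates 1, 2 and 4 and at 28.04, 25.6 and 34.5 CPM in Cre replicates 10, 11 and 12. The groups did not overlap, by a margin of 34.66 against 34.46 CPM (log2 fold change 0.46, SE 0.13, unadjusted p = 0.00595, edgeR adjusted p = 0.816). Abcc2, the canalicular pump MRP2 for conjugated organic anions, stood at 274, 241 and 244 CPM in Cre-miR122 replicates 1, 2 and 4, against 205, 182 and 226 CPM in Cre replicates 10, 11 and 12. All Cre-miR122 libraries were above all Cre libraries (log2 fold change 0.31, SE 0.10, unadjusted p = 0.0131, edgeR adjusted p = 0.816). Slco1a4, a sinusoidal uptake carrier of organic anions, stood at 167, 177 and 177 CPM in Cre-miR122 replicates 1, 2 and 4 and at 253, 183 and 205 CPM in Cre replicates 10, 11 and 12. All Cre-miR122 libraries were below all Cre libraries, Cre replicate 10 being the highest (log2 fold change -0.30, SE 0.12, edgeR adjusted p = 0.816), and the value was -0.16 without Cre replicate 10. The organic anion carrier Slc22a7 differed by 0.24 (SE 0.11) on that scale, and by 0.14 without Cre-miR122 replicate 4. Of the genes of the ileal circuit, Slc10a2 had 2 to 7 counts per library, and Slc51a and Fabp6 had at most 1 count. Slc51b of the same list was not silent, with 36 to 56 counts per library, and it passed the filter on low counts.

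Regulators had 12 of 21 tested genes above 0, a median of 0.023 and none at an unadjusted p under 0.05. Leaving out Cre-miR122 replicate 1 turned the median to -0.052 and leaving out Cre replicate 11 to -0.017, and it was 0.0093 when Cre-miR122 replicate 4 was left out and 0.060 when Cre replicate 12 was. Rxra, the partner receptor of FXR, stood at 393, 396 and 460 CPM in Cre-miR122 replicates 1, 2 and 4, against 386, 346 and 357 CPM in Cre replicates 10, 11 and 12. The groups did not overlap, which held for 11.1% of all genes tested (log2 fold change 0.20, SE 0.095, edgeR adjusted p = 0.816). Mafg, a transcription factor that FXR induces in mice and that represses synthesis genes, differed by 0.17 (SE 0.10) on the log2 scale, and the hepatocyte factor gene Foxa2 by -0.25 (SE 0.19). Without Cre-miR122 replicate 4 the value of Rxra was 0.12, and that of Mafg lay between 0.11 (without Cre-miR122 replicate 1) and 0.27 (without Cre replicate 12). Foxa2 was -0.045 when Cre replicate 12 was left out, -0.13 when Cre-miR122 replicate 1 was and -0.46 when Cre-miR122 replicate 2 was. The FGF15 receptor Fgfr4 averaged 35.4 ± 2.57 CPM with Cre-miR122 and 38.2 ± 6.25 CPM with Cre, and its partner Klb 23.9 ± 2.43 CPM with Cre-miR122 and 21.2 ± 6.20 CPM with Cre (SD, n = 3 each). The receptor genes Gpbar1 and Vdr had at most 3 counts per library.

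Of 10 detoxification genes tested, 3 lay above 0 and 7 below, with a median of -0.041 and none at an unadjusted p under 0.05. Leaving out Cre replicate 12 turned the median to 0.098, and it was -0.089 when Cre replicate 10 was left out and -0.013 when Cre-miR122 replicate 4 was. Those with the smallest p were the glutathione transferase gene Gstm1 (log2 fold change -0.13, SE 0.096), the glucuronosyltransferase gene Ugt1a1 (0.16, SE 0.18), the sulfate donor enzyme gene Papss2 (0.093, SE 0.12) and Cyp3a11 (-0.086, SE 0.14), which encodes a hydroxylase. Leaving out Cre replicate 11 took Gstm1 to -0.065, Ugt1a1 to 0.027 and Papss2 to 0.0029, and leaving out Cre replicate 12 took Ugt1a1 to 0.38, Papss2 to 0.26 and Cyp3a11 to 0.066. Gstm1 was -0.21 and Papss2 0.031 when Cre replicate 10 was left out, and Ugt1a1 was 0.038 when Cre-miR122 replicate 4 was. Gstm1, Ugt1a1 and Cyp3a11 have close relatives or shared exons, and how reads matching several places were counted is unknown, so their levels are uncertain.

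The genes whose library pattern came nearest to that of Cyp7a1 were Sgsm1, Ftx and A930005H10Rik, with a root mean square distance of 0.075, 0.077 and 0.080 in centred log2 CPM over the 6 libraries, against a spread of 0.27 for Cyp7a1 itself. For Sgsm1, Ftx and A930005H10Rik, as for Cyp7a1, the lowest library was Cre replicate 10, which differs in sex, and Ftx lies on the X chromosome. Nearest to Nr0b2 were Arv1, Polr1e and Taf1a, at 0.045, 0.055 and 0.057 against a spread of 0.18. They are the nearest of 13035 genes ranked on 6 values. These neighbours had few counts, 48 to 239 per library, against 1277 to 2351 for Cyp7a1 and 559 to 900 for Nr0b2. How much of the distances is counting error was not tested. None of the 6 is a member of the bile acid lists.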

How the data were processed

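Messenger RNA of 6 mouse liver libraries was sequenced, 3 per group. The authors deposited raw counts of reads per gene, not normalized, made with STAR 2.7.9a and featureCounts 2.0.1 on GRCm38 (mm10), per the submitters' processing notes. Per the file headers the table also gives the merged exon length of each gene, a value in bases used for FPKM. The strand setting and the treatment of multi-mapping reads are unknown. No exon of the 10 genes overlaps an exon of another gene in the table. A further 5 columns match no sample and were not used.

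Groups come from the sample titles. Genes were tested with edgeR 4.0.16 (R 4.3.3), quasi-likelihood F test, TMM scaling, filterByExpr, group as the sole term, two-sided, Benjamini-Hochberg adjustment over 14374 genes, threshold 0.05. Standard errors were derived from F, and 95% intervals from the t distribution with its degrees of freedom. Ratios used a pseudocount of 0.5 counts. Alternatives were RLE scaling, no filter, DESeq2 1.42.0, limma-voom (limma 3.58.1), leaving out each library, and 5 counts as pseudocount. The fits were tested on simulated data.

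The 10 genes, the lists and the tests were chosen with earlier results of these data known. Named from each list were the 4 genes with the smallest p, and for Cyp7a1 and Nr0b2 the 3 nearest in pattern. Of these genes 1 is not reported here. Other genes were named after their values were seen. Symbols were used as in the table, and 1 of 10 hepatocyte marker symbols (Tf) had no row.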

Additional observations from a re-analysis of the deposited data

How the results depend on the processing

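No paired analysis was possible because the groups share no replicate numbers. RLE scaling changed no direction or call among the results named here. The count of genes called, 0, became 2 (Prok1 and Cre) without a filter on low counts and 3 (Prok1, Psrc1 and Cre) with DESeq2, and was 0 with any 1 library left out. The count at an unadjusted p under 0.05 was 778. Cre passed the threshold without a filter (log2 fold change -1.94, adjusted p = 0.0392) and with DESeq2 (-1.96, adjusted p = 0.00471), and lay between -2.14 and -1.75 with 1 library left out. With limma-voom Cyp8b1 turned to 0.022. For these changes the cause was not tested.

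Leaving out each library in turn gave log2 fold changes of -0.030 to 0.37 for Cyp7a1, -0.17 to 0.28 for Cyp8b1, 0.0005 to 0.32 for Cyp27a1, -0.73 to -0.36 for Cyp7b1, 0.073 to 0.35 for Slc27a5 and -0.19 to 0.063 for Baat. They ran from -0.075 to 0.096 for Slc10a1, -0.070 to 0.11 for Abcb11, -0.28 to 0.032 for Nr1h4, -0.10 to 0.18 for Nr0b2 and -0.20 to 0.066 for Cyp3a11. List medians ran from -0.00094 to 0.10 for synthesis enzymes, -0.052 to 0.060 for regulators, 0.054 to 0.25 for transporters, -0.089 to 0.098 for detoxification genes and -0.040 to 0.068 for the 10 genes. The log2 difference in ratio ran from -0.50 to 0.30 for Cyp8b1 to Cyp7a1 and from -0.11 to 0.27 for Cyp7a1 to Nr0b2. Depth limits Cyp7b1, with 24 to 54 counts per library, more than the other 9 genes, which had at least 559.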

Other observations

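Tat, Ppargc1a, Cebpb and Apoa4, members of the marker and regulator lists, were picked after their values were seen because Cre-miR122 replicate 1 and Cre replicate 10 were their highest libraries within each group. Ttr, Hnf4a, Nr1i2, Anxa13 and Cftr of these lists had the same order, so it is not particular to the genes picked. How many genes in all show this order was not counted. Tat, the tyrosine aminotransferase gene, stood at 1419, 433 and 476 CPM in Cre-miR122 replicates 1, 2 and 4, against 770, 291 and 364 CPM in Cre replicates 10, 11 and 12. Cre-miR122 replicate 1 stood furthest from the rest. The coactivator gene Ppargc1a stood at 34.3, 18.9 and 27.2 CPM in Cre-miR122 replicates 1, 2 and 4 and at 33.3, 17.3 and 22.6 CPM in Cre replicates 10, 11 and 12. The transcription factor gene Cebpb stood at 110, 48.7 and 90.1 CPM with Cre-miR122 and at 108, 56.1 and 59.3 CPM with Cre, in the same order of replicates. The apolipoprotein gene Apoa4 stood at 157, 55.4 and 69.3 CPM with Cre-miR122 and at 272, 75.9 and 60.8 CPM with Cre. Cyp8b1 also had Cre-miR122 replicate 1 and Cre replicate 10 as its highest libraries within each group, at 135 and 176.9 CPM. For Cyp7a1, Cre-miR122 replicate 1 was the highest library of its group and Cre replicate 10 the lowest of all 6.

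Slco1a1, a sinusoidal carrier of organic anions, had the widest range among the 16 transporters tested, its highest library being 3.87-fold above its lowest. It stood at 13.7, 5.08 and 6.39 CPM in Cre-miR122 replicates 1, 2 and 4 and at 5.85, 3.54 and 7.80 CPM in Cre replicates 10, 11 and 12.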
